A study of Mus musculus with 2 samples.

Results

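*Myb*, *Tcf7*, *Txk*, *Slamf7*, *Rgs16*, *Dnah8*, *1700097N02Rik* and *Gm8369* are 8 of the 31053 genes counted in single cells of MRL-*lpr* mouse kidneys. They were selected on their UMI counts in these same libraries, where an earlier look found them to lead a group of T cells poor in both coreceptors, Cd4 and Cd8. Their levels in those cells are given as a description, and no test was run on them. The study asked how kidney innate lymphoid cells (ILCs) behave in lupus nephritis, and the T cells described here came along with the ILCs. Each age, old and young, was represented by a single library made from pooled kidneys of MRL-*lpr* mice, the number of which the labels do not give, so that a difference between the ages had no replicate check. Both groups carry the same *lpr* genotype and neither has a control without it. The paper describes the mice of both ages as female. It treats young MRL-*lpr* mice as controls or mildly diseased and old ones as severely diseased. Age and disease thus cannot be told apart in these 2 libraries. Before loading, kidney leukocytes were concentrated on a density gradient, enriched for ILCs with a magnetic kit and sorted for live cells, and the T cells are those that this enrichment let through. Shares of cells thus describe what was loaded, and fewer cells of a type cannot be told apart from a difference in how well that type passed the enrichment.

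The *lpr* mutation disables *Fas*, the death receptor by which activated lymphocytes are removed, and mice that carry it accumulate T cells with an αβ receptor but neither coreceptor, known as double-negative T cells. *Myb* and *Tcf7* encode transcription factors of T cell development and of long-lived, self-renewing T cells. *Txk* encodes a TEC-family tyrosine kinase of T cell receptor signalling, *Slamf7* a self-binding receptor of the SLAM family, and *Rgs16* a protein that shortens signals of G protein-coupled receptors such as chemokine receptors. *Dnah8* encodes a heavy chain of the dynein motor of cilia and flagella, *1700097N02Rik* is a long noncoding RNA gene that starts beside *Dnah8* on the opposite strand, and *Gm8369* is a protein-coding gene model next to the *Ms4a* genes, which encode membrane proteins of leukocytes.

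The young library held 15076 barcodes with 156787812 unique molecular identifiers (UMIs, each a counted RNA molecule) and the old library 12622 barcodes with 126334256 UMIs. A minimum of 200 genes per barcode and a maximum of 20% mitochondrial UMIs left 11429 young and 10232 old cells. A cell counted as a CD3 cell with at least 2 UMIs of *Cd3d*, *Cd3e* and *Cd3g* together, unless marker genes of B, plasma, myeloid, plasmacytoid dendritic, epithelial, endothelial or erythroid cells outscored its T cell markers. CD3 cells were divided by whether they had a UMI of *Cd4*, of *Cd8a* or *Cd8b1*, of both kinds or of neither. The old library gave 4060 CD3 cells, of which 1650 were coreceptor-negative (40.6%, exact Clopper-Pearson 95% interval 39.1–42.2%), 1153 had *Cd4*, 1164 had *Cd8* and 93 had both. The young library had 588 CD3 cells, of which 286 were coreceptor-negative (48.6%, 44.5–52.8%), 121 had *Cd4*, 173 had *Cd8* and 8 had both. Of the barcodes of kept cells, 26 occurred in both libraries, and 1 of CD3 cells did.

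The coreceptor-negative cells were checked against markers of T cells and of other cells. A UMI of *Trac*, *Trbc1* or *Trbc2*, the constant parts of the αβ receptor, was found in 99.5% of old and 99.0% of young coreceptor-negative cells. At least 99.4% of *Cd4* and *Cd8* cells had one too, so this share hardly separates the classes. *Trac* alone had 327 CPM (UMIs of a gene per 1000000 UMIs of its class) in young coreceptor-negative, 668 in *Cd4* and 656 in *Cd8* cells. In the old library it had 759, 908 and 848 CPM. Signs of other lymphocytes were much more frequent in the young ones. *Trdc*, which marks γδ T cells, had a UMI in 22.4% of coreceptor-negative cells in the young library and in 4.61% in the old one. With *Tcrg-C* genes counted too, the shares were 48.3% and 8.79%, and those of *Cd8* cells were 21.4% and 34.8%. For coreceptor-negative cells in the same order, a UMI of the natural killer (NK) genes *Ncr1* or *Klrb1c* was found in 14.3% and 1.76%. A UMI of *Il1rl1* or *Il17rb*, which mark ILC2s, was found in 22.7% and 1.33%. The 7 markers of ILC2s summed to 1218 CPM in young and 197 CPM in old coreceptor-negative cells, and none of them was at 0 in either. Of the young sum *Rora* made up 542 CPM, *Gata3* 315 CPM and *Areg* 169 CPM. The ILC2 markers summed to 568 and 417 CPM in *Cd4* and to 330 and 179 CPM in *Cd8* cells. The 4 γδ markers summed to 672 and 127 CPM with none at 0, and the 6 NK or ILC1 markers to 181 and 51.9 CPM with *Klra8* at 0 in both. In the same order the γδ sums were 35.2 and 58.3 CPM in *Cd4* and 292 and 217 CPM in *Cd8* cells. Those of NK or ILC1 markers were 25.4 and 35.1 CPM in *Cd4* and 28.2 and 74.1 CPM in *Cd8* cells. The 8 proximal tubule markers summed to 3193 CPM in young coreceptor-negative cells and 1334 CPM in old ones, and to between 988 and 3132 CPM in the *Cd4* and *Cd8* cells. The 6 markers of other epithelium summed to 228 CPM in old coreceptor-negative cells, with *Aqp2* at 0, against 53.2 CPM in *Cd4* and 84.9 CPM in *Cd8* cells. Of this sum *Epcam*, an epithelial adhesion protein, made up 220.0 CPM, against 32.4 CPM in *Cd4* and 39.7 CPM in *Cd8* cells. The 5 plasma cell markers, none at 0, summed to 175 CPM against 84.8 and 82.9 CPM, mostly from *Xbp1* at 90.8 CPM and *Sdc1* at 65.2 CPM. In the young classes these sums lay between 23.3 and 28.2 CPM and between 42.3 and 56.4 CPM. Values without cells that had a UMI of *Trdc*, *Ncr1*, *Klrb1c*, *Il1rl1*, *Il17rb* or cycling genes are given with the comparison of the libraries. Cells with *Tcrg-C* but no *Trdc* UMIs were not left out by that choice. The part of the other markers and of background RNA in the results was not tested.

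For each class the counts of its cells were added up before scaling, and each CPM is given with an exact Poisson 95% interval. Log2 ratios of CPM are given with an exact binomial 95% interval. All intervals cover counting error only and say nothing of variation between mice. A gene was counted as higher or lower from a 2-fold ratio on, among genes with at least 20 UMIs over both groups. Counts of UMIs in a class were compared within a gene and not between genes.

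Of the 8 genes, 7 in the old library were at least 2-fold higher in coreceptor-negative cells than in *Cd4* cells, where 6.78% of 11528 genes were that much higher and 5.96% that much lower. Against *Cd8* cells 8 of 8 were, where 8.95% of 11671 genes were higher and 6.23% lower. The median log2 ratio of the 8 genes was 2.03 against *Cd4* cells and 1.62 against *Cd8* cells, while the median over all genes was 0.05 and 0.12. Since the genes were chosen for this pattern, these counts restate the choice. The young library was a different picture. There, 1 of the 8 genes was at least 2-fold higher in coreceptor-negative than in *Cd4* cells (8.36% of 8109 genes) and 4 were at least 2-fold lower (2.59%), and against *Cd8* cells none was higher (9.18% of 8366 genes) and 2 were lower (2.67%). The median log2 ratio of the 8 genes in the young library was −1.01 against *Cd4* cells and −0.62 against *Cd8* cells. In the young library the 8 genes thus did not lead the coreceptor-negative cells. Over *Cd4* cells 6 of the 8 had an interval above 0 in the old and below 0 in the young library. Of all 8067 genes compared, 1.77% did. Over *Cd8* cells 4 of the 8 did, and 1.94% of 8334 genes. The old part of this criterion was favoured by the choice, as all 8 genes had old intervals above 0 over both classes. These shares of all genes are thus no fair base, and the share among genes above 0 in the old library was not counted.

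**Figure D1:**
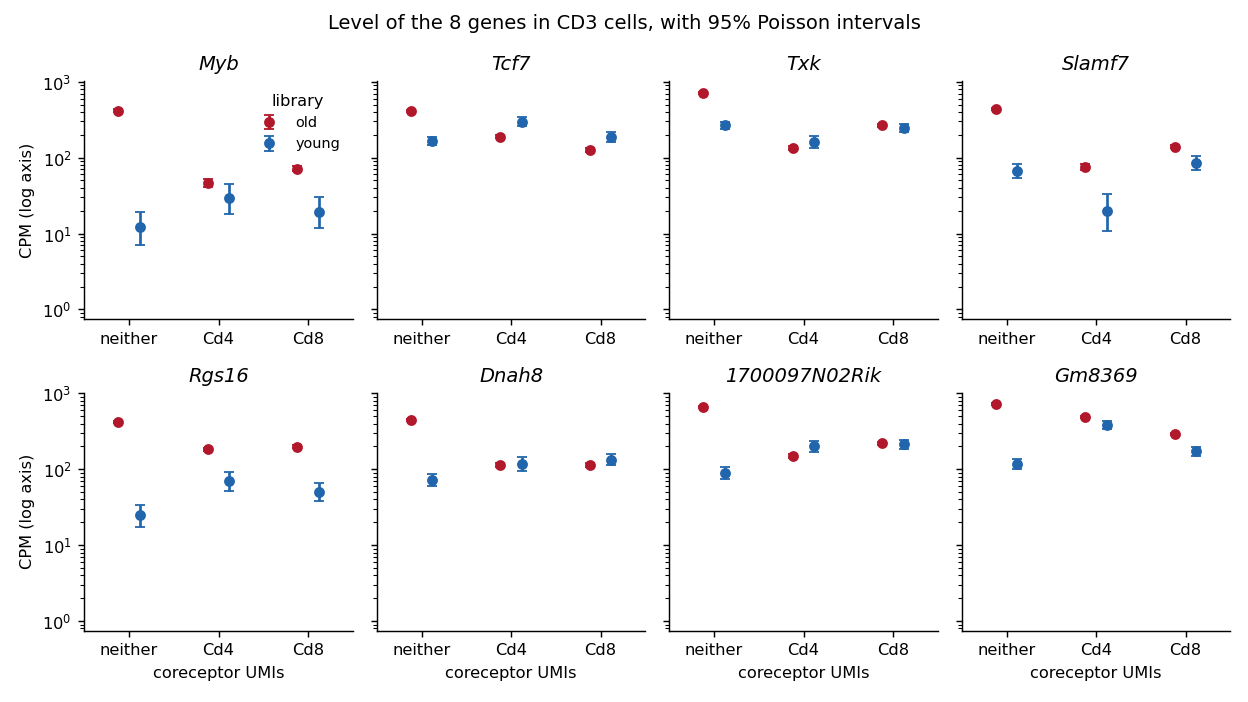
CPM (log axis) of each of the 8 genes in CD3 cells with neither coreceptor, with *Cd4* and with *Cd8* in the old (red) and young (blue) library; points are the sums of 1 library and bars are exact Poisson 95% intervals. In the old library the cells with neither coreceptor are highest for each gene, and in the young library they are highest for *Txk* alone.

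*Myb* (ENSMUSG00000019982; chr10:21124935-21160984, minus strand, GRCm38), a transcription factor needed for the development of blood and T cells, differed most between the classes of the old library. Old coreceptor-negative cells had 3146 UMIs of it, or 418 CPM (403–432), against 46.3 CPM (41.4–51.7) in *Cd4* and 71.6 CPM (66.0–77.5) in *Cd8* cells. Its log2 ratio was 3.17 (3.01–3.34) over *Cd4* cells, which ranked 52 from the top of 11528 genes, and 2.55 (2.42–2.67) over *Cd8* cells. Young coreceptor-negative cells had 18 UMIs of *Myb*, or 12.1 CPM (7.16–19.1), 94.4% of them in 10 cells, and *Cd4* and *Cd8* cells had 29.6 and 19.4 CPM. *Myb* was thus low in each of the 3 young classes, and its log2 ratio over *Cd8* cells, −0.68 (−1.69 to 0.31), did not differ from 0 beyond counting error. Of its relatives *Mybl1* and *Mybl2*, which drive the cell cycle of germ cells and of dividing cells, neither passed 1.33 CPM in old coreceptor-negative cells, and *Mybl2* was lower there than in *Cd4* cells (log2 ratio −1.28, −2.52 to −0.14), on 10 and 22 UMIs.

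*Tcf7* (ENSMUSG00000000782; chr11:52252371-52283014, minus strand), which encodes the T cell factor TCF1, was found in all classes of CD3 cells. In the old library it had 413 CPM (398–427) in coreceptor-negative, 189 CPM (179–199.9) in *Cd4* and 126 CPM (118–133) in *Cd8* cells, log2 ratios of 1.12 (1.03–1.22) and 1.72 (1.61–1.82). In the young library the order was turned against *Cd4* cells, with 167 CPM (147–189) in coreceptor-negative and 299 CPM (259.9–342) in *Cd4* cells. Its relative *Lef1* followed the same order, with 174 CPM in old coreceptor-negative cells, 64.7 in *Cd4* and 64.5 in *Cd8* cells, a log2 ratio of 1.43 (1.27–1.58) over *Cd4*, and with 154 CPM in young coreceptor-negative and 249 CPM in young *Cd4* cells, a log2 ratio of −0.70 (−0.99 to −0.41). *Tcf7l2* was close to the limit of detection in the old classes, with 9, 14 and 23 UMIs, and its log2 ratio over *Cd4* cells was −0.78 (−2.17 to 0.53).

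Regulators of T cell quiescence, recirculation, memory and effector fate were listed beside these transcription factors. Of 17 such genes, 6 were at least 2-fold higher and 3 at least 2-fold lower in old coreceptor-negative than in *Cd4* cells, and 9 were higher and 2 lower than in *Cd8* cells, with a median log2 ratio of 0.68 and 1.04. Of all genes compared 6.78% were higher and 5.96% lower than in *Cd4* cells, and 8.95% higher and 6.23% lower than in *Cd8* cells. *Il7r*, the receptor of a survival cytokine of naive and memory T cells, stood lowest with 132 CPM against 426 CPM in *Cd4* cells, a log2 ratio of −1.70 (−1.80 to −1.59). The other 2 lower genes, *Id2* at −1.34 and *Prdm1* at −1.26, encode factors that favour effector fates.

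Of these genes, 16 could be compared in both libraries. For 7 of them the sign of the log2 ratio over *Cd4* cells was turned, with neither interval holding 0. The same was seen for 5.01% of 8067 genes, which is no fair base for this count. Genes with more UMIs have narrower intervals, and the genes of the base were not matched to the list for UMIs. The list was also chosen with earlier results of these data known. *Klf2*, a quiescence factor that keeps T cells circulating, had a log2 ratio of 1.31 in the old and −0.65 in the young library. The ratios of *Ccr7*, which guides T cells to lymph nodes, were 1.12 and −1.72. Those of *S1pr1*, the receptor for leaving them, were 0.92 and −1.60. Those of *Bach2*, a repressor of effector genes, were 1.99 and −0.92. *Id2*, which favours effector and innate-like fates, and *Zeb2*, a factor of terminal effector cells, went the other way, with −1.34 and 0.64 and with −0.40 and 0.87. *Eomes*, a T-box factor of memory and cytotoxic cells, was higher over *Cd4* cells in both, with 1.91 (1.80–2.01) in the old library and 2.55 (0.90–4.90) in the young one, the latter on 37 and 3 UMIs; it was named after its values were seen.

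*Txk* (ENSMUSG00000054892; chr5:72695978-72752777, minus strand) had 716 CPM (697–736) in old coreceptor-negative, 134 CPM (125–143) in *Cd4* and 267 CPM (256–278) in *Cd8* cells. The log2 ratios were 2.42 (2.32–2.52) and 1.42 (1.35–1.496). In the young library it was the one gene of the 8 with its highest level in coreceptor-negative cells, at 268 CPM (242–295), but its interval overlapped that of *Cd8* cells at 248 CPM (218–280), and *Cd4* cells had 162 CPM (134–195). *Tec*, another kinase of the family, lies 2.94 kb from *Txk* on the same strand, and it went the same way with a larger ratio, at 134 CPM in old coreceptor-negative, 17.7 in *Cd4* and 30.8 in *Cd8* cells, a log2 ratio of 2.92 (2.65–3.21) over *Cd4* cells.

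The rest of the receptor-proximal pathway differed little between the classes. Of 9 genes of this list that could be compared, *Txk* and *Tec* were at least 2-fold higher in old coreceptor-negative than in *Cd4* cells and than in *Cd8* cells, and the other 7 lay within 2-fold. *Zap70*, the kinase that binds the activated receptor, stood lowest at a log2 ratio of −0.52 (−0.64 to −0.40) over *Cd4* cells. *Lck*, *Fyn* and *Lat*, which relay the receptor's signal, turned their sign between the libraries but stayed within 2-fold in both, with log2 ratios over *Cd4* cells of 0.18, 0.27 and 0.17 in the old and −0.59, −0.33 and −0.56 in the young library.

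*Slamf7* (ENSMUSG00000038179; chr1:171632403-171653035, minus strand), a SLAM receptor of cytotoxic lymphocytes and plasma cells, had 441 CPM (426–456) in old coreceptor-negative, 76.1 CPM (69.7–82.98) in *Cd4* and 140 CPM (132–148) in *Cd8* cells. Its log2 ratios were 2.53 (2.40–2.67) and 1.66 (1.56–1.75). It was the gene of the 8 that stayed at least 2-fold higher than in *Cd4* cells in the young library, with a log2 ratio of 1.77 (0.95–2.69) on 100 and 14 UMIs, while young *Cd8* cells had 85.4 CPM (68.5–105) against 67.1 CPM (54.6–81.6) in coreceptor-negative cells. With cells left out that had a UMI of *Trdc*, *Tcrg-C* genes or *Zbtb16*, no gene of the 8 was 2-fold higher than in young *Cd4* cells. With *Trdc* cells alone left out, young *Slamf7* stayed higher, at 58.6 CPM in coreceptor-negative and 19.1 CPM in *Cd4* cells. Without *Trdc*, NK, ILC2 and cycling cells it had 61.5 and 7.25 CPM. With cells of exactly 1 coreceptor UMI left out, young *Slamf7* had 67.1 CPM in coreceptor-negative and 35.3 CPM in *Cd4* cells, less than 2-fold. *Txk* was then the gene of the 8 past 2-fold over young *Cd4* cells, at 268 against 109 CPM.

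Among the SLAM receptors and their adaptors, 8 could be compared. *Slamf7* was the 1 gene at least 2-fold higher over old *Cd4* cells and *Cd84* the lowest, at a log2 ratio of 0.06 (−0.06 to 0.18), while 4 genes were at least 2-fold higher and 1 was lower over *Cd8* cells. Without *Slamf7*, which was chosen for this pattern, 3 of 7 were higher over *Cd8* cells, as were 8.95% of all genes compared. *Slamf6*, a receptor that stem-like T cells carry, had 292 CPM in old coreceptor-negative, 179 in *Cd4* and 92.0 in *Cd8* cells. It turned its sign over *Cd4* cells, from 0.71 (0.61–0.81) in the old to −1.76 (−2.22 to −1.31) in the young library, as did *Slamf1* (0.24 and −1.05) and the adaptor *Sh2d1a* (0.29 and −0.64).

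*Rgs16* (ENSMUSG00000026475; chr1:153740349-153745468, plus strand) had 420.3 CPM (406–435) in old coreceptor-negative, 183 CPM (173–194) in *Cd4* and 198 CPM (188–207) in *Cd8* cells. Its log2 ratio of 1.09 (1.003–1.17) over *Cd8* cells was the smallest of the 8. Young coreceptor-negative cells had 24.8 CPM (17.5–34.2) from 37 UMIs, 86.5% of them in 10 cells, and lay below *Cd4* cells at 70.5 CPM (52.3–92.9) and *Cd8* cells at 50.5 CPM (37.7–66.2). That order rested on few cells. It was turned over *Cd8* cells when the mean of each cell's CPM was used, and over both when cells with *Trdc*, NK, ILC2 or cycling genes were left out.

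The RGS family did not go one way. Of 11 genes that could be compared, 3 were at least 2-fold higher and 1 was lower in old coreceptor-negative than in *Cd4* cells, and 3 were higher and 2 lower than in *Cd8* cells. Without *Rgs16*, which was chosen for this pattern, 2 of 10 were higher over each class. Of all genes compared 6.78% were higher over *Cd4* and 8.95% over *Cd8* cells. *Rgs9*, best known from photoreceptors and the striatum, stood highest, with 82.6 CPM against 9.79 CPM in *Cd4* and 9.80 CPM in *Cd8* cells, a log2 ratio of 3.08 (2.71–3.46) over *Cd4*. It had 3 UMIs in young coreceptor-negative cells. *Rgs10* stood lowest at a log2 ratio of −1.40 (−1.61 to −1.20). *Rgs1*, *Rgs2* and *Rgs3* were lower than in *Cd4* cells in the old library, with log2 ratios of −0.79, −0.25 and −0.92, and higher in the young one, with 1.01, 0.54 and 0.67, which is the turn opposite to that of *Rgs16*.

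*Dnah8* (ENSMUSG00000033826; chr17:30624354-30877365, plus strand) and *1700097N02Rik* (ENSMUSG00000099474; chr17:30622441-30626905, minus strand) share a promoter region, and the annotation classes the latter as a long noncoding RNA of a bidirectional promoter. Their RefSeq promoter windows on GRCm38.p6, each from 250 bases before to 50 bases after the start, overlap by 130 bases, and the RefSeq starts lie 31 bases apart. The RefSeq start of *Dnah8* lies inside the gene model given above, which begins further upstream. Both windows are shown because these neighbours had the most alike levels of all pairs of the 8 genes, given further on. Each is written in the direction of its own gene, *Dnah8* at chr17:30626686-30626985 on the plus strand and *1700097N02Rik* at chr17:30626856-30627155 on the minus strand, with the shared stretch in capitals.
Dnah8: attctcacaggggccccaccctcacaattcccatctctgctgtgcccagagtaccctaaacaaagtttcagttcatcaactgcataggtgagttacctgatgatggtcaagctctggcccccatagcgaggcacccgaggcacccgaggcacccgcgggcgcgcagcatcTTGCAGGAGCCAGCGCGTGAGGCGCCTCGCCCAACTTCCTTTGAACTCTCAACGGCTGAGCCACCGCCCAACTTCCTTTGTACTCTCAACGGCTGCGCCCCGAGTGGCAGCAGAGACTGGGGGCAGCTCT
1700097N02Rik: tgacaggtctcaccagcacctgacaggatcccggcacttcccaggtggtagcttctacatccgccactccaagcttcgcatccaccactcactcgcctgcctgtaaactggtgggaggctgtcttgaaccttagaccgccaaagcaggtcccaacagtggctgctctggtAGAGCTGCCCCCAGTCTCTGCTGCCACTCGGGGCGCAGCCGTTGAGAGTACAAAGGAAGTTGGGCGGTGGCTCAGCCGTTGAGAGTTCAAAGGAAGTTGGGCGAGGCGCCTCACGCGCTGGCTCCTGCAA
Within the shared stretch, 2 copies of a run of 31 bases start 37 bases apart and differ at 1 position. They are written here on the plus strand, with matches to the letters searched for TCF/LEF and MYB factors in capitals.
copy at lower coordinates: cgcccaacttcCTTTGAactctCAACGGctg
copy at higher coordinates: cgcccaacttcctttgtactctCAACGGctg

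The letters searched were CTTTGA for TCF/LEF, TGTGGT for RUNX, and CAACNG or TAACNG for MYB, each on both strands, and no match overlapped another. All 8 genes had a RefSeq window, 10 windows in all. TCF/LEF letters were found in windows of 4 of the 8 genes, where 16.0% of 32851 windows of all genes held them, and the matches of *Dnah8* and *1700097N02Rik* are the same bases. MYB letters were found for 4 of the 8 genes (49.7% of all windows) and RUNX letters for 1 (16.8%). The other genes with TCF/LEF letters were *Txk* and *Gm8369*, whose windows are shown with all matches in capitals, *Txk* at chr5:72752728-72753027 on the minus strand (the first of its 2 windows) and *Gm8369* at chr19:11491788-11492087 on the plus strand, which lies inside the GENCODE gene model.
Txk: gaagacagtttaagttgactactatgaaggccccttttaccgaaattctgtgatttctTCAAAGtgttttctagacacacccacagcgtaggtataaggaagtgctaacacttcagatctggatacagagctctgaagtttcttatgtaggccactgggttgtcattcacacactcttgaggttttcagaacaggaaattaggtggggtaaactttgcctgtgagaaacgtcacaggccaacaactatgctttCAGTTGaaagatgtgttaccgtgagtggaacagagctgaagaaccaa
Gm8369: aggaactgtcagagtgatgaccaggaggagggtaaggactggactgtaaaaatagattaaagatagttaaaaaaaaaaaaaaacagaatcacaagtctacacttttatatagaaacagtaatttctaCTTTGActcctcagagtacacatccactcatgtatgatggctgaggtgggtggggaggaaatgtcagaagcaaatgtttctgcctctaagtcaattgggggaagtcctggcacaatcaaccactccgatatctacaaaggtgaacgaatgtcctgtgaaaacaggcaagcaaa
A match is no evidence that a factor binds, and the count matrices do not bear on binding.

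*Dnah8* had 444 CPM (429–459) in old coreceptor-negative, 114 CPM (107–123) in *Cd4* and 113 CPM (106–121) in *Cd8* cells. *1700097N02Rik* had 656 CPM (638–674), 152 CPM (142–161) and 219 CPM (209–229). The log2 ratios over *Cd4* cells were 1.95 (1.84–2.07) and 2.11 (2.02–2.21). In the young library both were lower in coreceptor-negative cells than in the others, *Dnah8* with 72.5 CPM (59.5–87.5) against 118 CPM (94.4–147) in *Cd4* and 134 CPM (113–158) in *Cd8* cells, and *1700097N02Rik* with 89.2 CPM (74.7–106) against 203 CPM (171–239) and 214 CPM (186–244). Both genes of the pair thus stood highest in the old and lowest in the young coreceptor-negative class.

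*Dnah8* was the only axonemal dynein heavy chain of the 15 listed that had enough UMIs to be compared in any of these ratios. Each of the other 14 had at most 0.398 CPM in old coreceptor-negative cells. The pair sits in a crowded locus. The gene models of *Dnah8* and *1700097N02Rik* overlap by 2552 bases on opposite strands, and that of *Glo1*, a glyoxalase gene on the strand of *1700097N02Rik*, covers 4431 bases of the latter. Whether reads in these overlaps were counted for 1 gene, both or neither is not given in the sources used here, and the matrices do not say where in a gene a UMI lay, so the split of counts between these genes is uncertain. *Glo1* itself had similar levels in the old classes, at 180.0, 149 and 155 CPM, and its log2 ratio over *Cd4* cells was 0.27 (0.15–0.39). Of the other members, *Myb*, *Tcf7*, *Slamf7* and *Rgs16* each overlap an antisense gene with between 6 and 49 UMIs in old CD3 cells, and *Tcf7* also overlaps *Gm26551* on its own strand, with 236 UMIs. The nearest genes outside the locus with at least 20 UMIs in old CD3 cells, *Btbd9* and *Abcg1*, had log2 ratios of 0.72 and 0.56.

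*Gm8369* (ENSMUSG00000058470; chr19:11485938-11512577, plus strand) had the smallest difference from *Cd4* cells. In the old library it had 717 CPM (698–737) in coreceptor-negative, 487 CPM (471–504) in *Cd4* and 294 CPM (282–305) in *Cd8* cells, a 1.47-fold ratio over *Cd4* cells that ranked 1765 of 11528 genes. In the young library it had 117 CPM (100.1–135) in coreceptor-negative, 380.4 CPM (336–429) in *Cd4* and 172 CPM (147–199) in *Cd8* cells, with a log2 ratio of −1.70 (−1.99 to −1.42) over *Cd4*, the lowest of the 8. The levels of *Cd4* cells differed less between the libraries than those of coreceptor-negative cells did. Its neighbour *Ms4a6c*, 3.75 kb away, went the other way in the old library, with 35.3 CPM in coreceptor-negative and 89.7 CPM in *Cd4* cells, a log2 ratio of −1.35, and *Ms4a4b* and *Ms4a6b* of the same cluster had log2 ratios of 0.25 and −0.30. These neighbours were named after their values were seen.

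**Figure D2:**
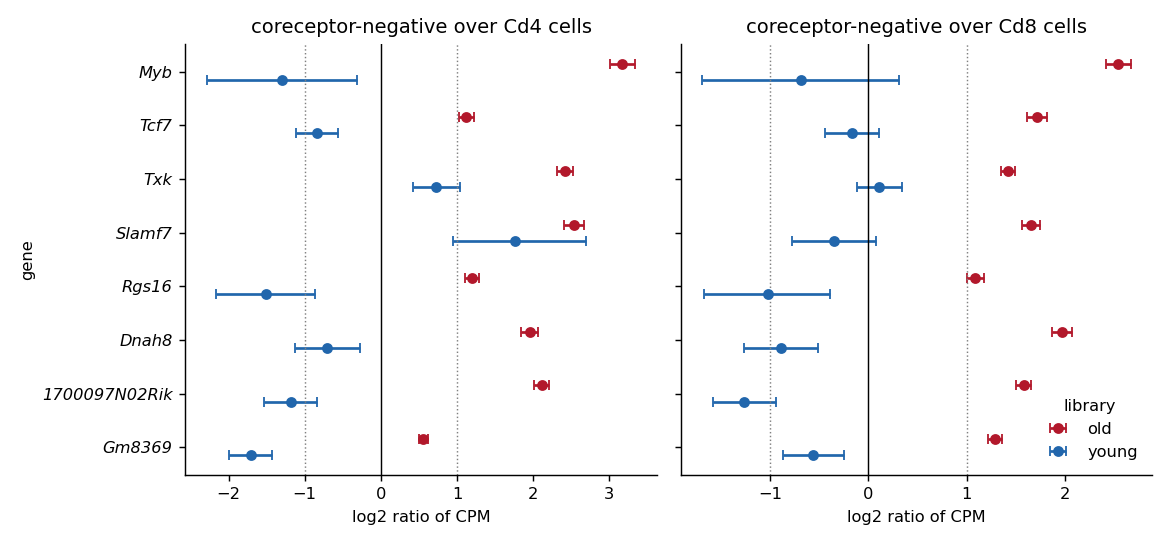
Log2 ratio of CPM of coreceptor-negative cells over *Cd4* cells (left) and over *Cd8* cells (right) for each gene, old library in red and young in blue, with exact binomial 95% intervals; dotted lines mark 2-fold. All old points lie right of 0, from 0.56 to 3.17 over *Cd4* and from 1.09 to 2.55 over *Cd8*, and the young points run from −1.70 to 1.77 and from −1.26 to 0.11.

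Between the libraries, each of the 8 genes was at least 2-fold higher in old than in young coreceptor-negative cells, where 11.1% of 10819 genes were. The genes were selected on T cells poor in both coreceptors. Coreceptor-negative cells numbered 1650 in the old and 286 in the young library, so high old levels were favoured by that choice. The share of all genes is thus no fair base for this count. The ratio of old over young was largest for *Myb*, at 34.6-fold (log2 ratio 5.11, 4.45–5.87, rank 14), and for *Rgs16*, at 16.9-fold, and smallest for *Tcf7*, at 2.47-fold. In *Cd4* cells 2 of the 8 genes, *Slamf7* at 3.86-fold and *Rgs16* at 2.60-fold, were at least 2-fold higher in the old library (8.89% of 10376 genes). In *Cd8* cells *Rgs16* at 3.92-fold and *Myb* at 3.68-fold were (8.28% of 10631 genes). *Tcf7* was lower in old than in young *Cd4* and *Cd8* cells, with log2 ratios of −0.66 (−0.87 to −0.44) and −0.58 (−0.80 to −0.35). The young coreceptor-negative class held more cells with γδ, NK and ILC2 genes, as given above, and a difference in which cells it held cannot be told apart from a difference in level per cell. With cells that carried *Trdc*, *Ncr1*, *Klrb1c*, *Il1rl1*, *Il17rb* or cycling genes left out, 123 young coreceptor-negative cells remained, with 19.2 CPM of *Myb*, 42.3 CPM of *Rgs16*, 254 CPM of *Tcf7* and 285 CPM of *Gm8369*, against 445, 427, 449 and 775 CPM in the 1358 old ones.

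The low place of the young coreceptor-negative cells was less marked with those cells left out, a choice that also removed cycling cells and left 86 *Cd4* and 128 *Cd8* cells. Without them the median log2 ratio of the 8 genes in the young library was −0.28 over *Cd4* cells instead of −1.01, and 0.03 over *Cd8* cells instead of −0.62. *Rgs16* was then on the other side of 0, *Gm8369* was at −0.84 over *Cd4* and 0.48 over *Cd8* cells, and 5 of the 8 genes still lay below 0 over *Cd4* cells, with *Tcf7* at 254 CPM against 384 CPM and *1700097N02Rik* at 152 CPM against 266 CPM. The same choice in the old library left 7 genes at least 2-fold higher over *Cd4* and 8 over *Cd8* cells. Cells outscored by another lineage made up 33.9% of young and 8.76% of old CD3 cells before they were removed. Keeping them lowered *Myb* in young coreceptor-negative cells from 12.1 to 5.76 CPM, *Tcf7* from 167 to 72.6 CPM and *Gm8369* from 117 to 51.4 CPM, and lowered *Myb* in old ones from 418 to 296 CPM.

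The 8 genes were next counted per cell, with each cell thinned to 1000 UMIs so that depth was equal and with shallower cells left out (31 of 1650 old and 4 of 286 young coreceptor-negative cells). An old coreceptor-negative cell had a UMI of 2.77 of the 8 genes on average, against 1.03 in old *Cd4* and 1.04 in old *Cd8* cells and 0.752 in young coreceptor-negative cells. At least 3 of the 8 genes were found in 892 of 1619 old coreceptor-negative cells (55.1%), in 8.12% of *Cd4* and in 10.9% of *Cd8* cells, and in 13 of 282 young coreceptor-negative cells (4.61%). None of the 8 was found in 12.7% of old coreceptor-negative cells. In proximal tubule cells, which should lack these genes, at least 3 were found in 0.269% of old and 0.0139% of young cells. The 93 old cells with UMIs of both coreceptors, with 0.914 genes on average, were like the *Cd4* and *Cd8* cells in this count.

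**Figure D3:**
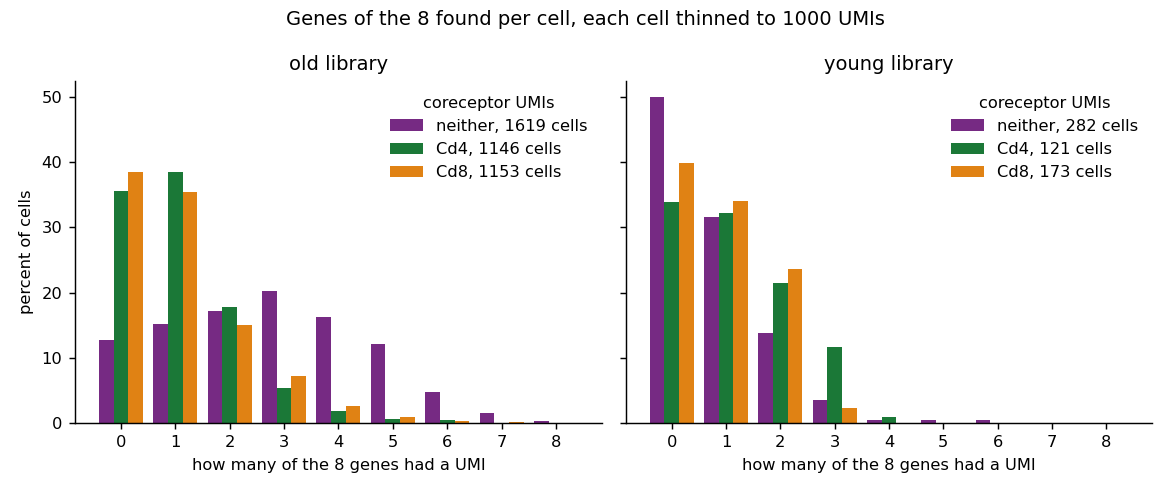
Percent of CD3 cells with a UMI of 0 to 8 of the genes after each cell was thinned to 1000 UMIs, by coreceptor class, in the old and the young library. In the old library 55.1% of the cells with neither coreceptor lie at 3 or more, and in the young library 4.61% do.

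By gene, the share of thinned old coreceptor-negative cells with a UMI ran from 23.2% for *Rgs16* (21.2–25.4%) to 45.7% for *Gm8369* (43.3–48.2%). *Myb* was found in 30.1% of them (27.9–32.4%), in 2.79% of *Cd4* and 5.03% of *Cd8* cells and in 1.77% (0.578–4.09%) of young coreceptor-negative cells. Before thinning, *Myb* was found in 57.3% of old and 3.85% of young coreceptor-negative cells. *Gm8369* was the least particular by this measure, with 37.3% of old *Cd4* cells. In proximal tubule cells the thinned share of *Myb* was 0.242% in the old and 0.0418% in the young library.

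Within old coreceptor-negative cells the genes were found together somewhat more often than their single shares give. Over the 28 pairs, the number of thinned cells with both genes was between 1.03 times (*Tcf7* and *Slamf7*) and 1.39 times (*Dnah8* and *1700097N02Rik*) the number that independent detection gives. Of the cells with *Dnah8*, 51.9% also had *1700097N02Rik*, against 30.7% of the cells without it. Of the cells with *Myb*, 60.8% had *Txk*, against 37.8% of those without. The same ratio ran from 0.702 (*Txk* and *Rgs16*) to 6.08 (*Myb* and *Slamf7*, on 9 cells with both) in old *Cd4* cells and from 0.738 (*Slamf7* and *Rgs16*) to 4.42 (*Myb* and *Dnah8*, on 24 cells) in old *Cd8* cells, so that joint detection was not a trait of the coreceptor-negative class alone. These are descriptions of cells of 1 library.

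The depth of a cell bears on which class it falls in, since a coreceptor can go uncounted in a shallow cell. The median was 3901 UMIs in old coreceptor-negative cells, 5212 in *Cd4* and 5999.5 in *Cd8* cells. The share of old CD3 cells without a coreceptor UMI was 64.5% (59.6–69.2%) under 2500 UMIs, 53.4% from 2500, 26.0% from 5000 and 18.4% (14.8–22.5%) from 10000 UMIs on. In the 76 deepest old coreceptor-negative cells *Myb* had 389 CPM, *Slamf7* 484 CPM and *Rgs16* 465 CPM, close to their levels in the class as a whole, while *Tcf7* had 219 CPM, *Txk* 443 CPM, *Dnah8* 284 CPM and *Gm8369* 419 CPM, below it. *1700097N02Rik* stood above it, at 786 CPM in the deepest cells and 468 CPM in those under 2500 UMIs. With cells of at least 5000 UMIs alone, 6 of the 8 genes were at least 2-fold higher than in old *Cd4* cells and 8 of 8 than in *Cd8* cells. In the young library, the 14 deepest coreceptor-negative cells had 30.1 CPM of *Myb*.

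**Figure D4:**
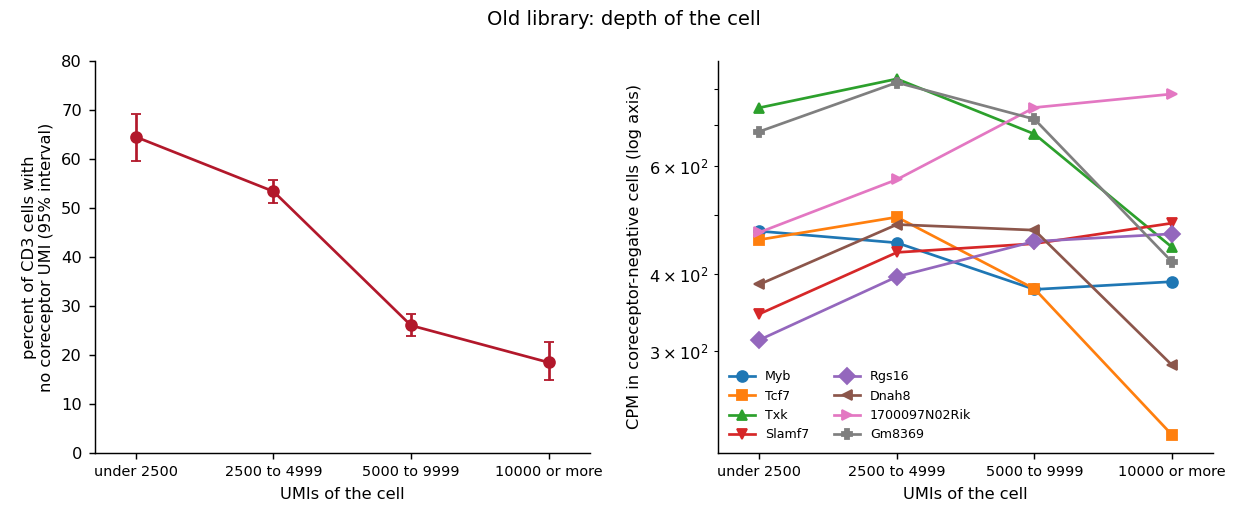
Left, percent of old CD3 cells with no coreceptor UMI by UMIs of the cell, with exact 95% intervals, from 64.5% in the shallowest to 18.4% in the deepest cells. Right, CPM (log axis) of each gene in the old coreceptor-negative cells of each depth, where the lowest value is 219 CPM, of *Tcf7* in the deepest cells.

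Kidneys were pooled, and the paper describes the mice of both ages as female, but UMIs of *Xist* and of Y-linked genes both occurred. The source of the Y-linked UMIs was not tested. Of old coreceptor-negative cells, 24.2% had a UMI of a Y-linked gene and none of *Xist*, and 52.1% had *Xist* and no Y-linked UMI; of young ones, 46.5% and 25.5%. *Myb* had 408 CPM (381–438) in the 400 old coreceptor-negative cells of the first kind and 457 CPM (437–478) in the 860 of the second. *Txk* differed more, at 612 CPM (578–648) and 811 CPM (784–839). *Dnah8* did not differ beyond counting error, at 464 CPM (435–495) and 466 CPM (446–488). In both kinds of cell each of the 8 genes stood above its level in the young cells of the same kind. The shares of the kinds differed between the libraries, so their part cannot be told apart from age.

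Outside CD3 cells the 8 genes fell into several patterns. Cells were put in a class by marker genes, with at least 3 markers of the class found and fewer than 2 CD3 UMIs. *Txk* was as high in NK or ILC1-like cells as in old coreceptor-negative cells, at 690.0 CPM (645–738) in the old and 614 CPM (522–719) in the young library, and the log2 ratio of old coreceptor-negative over old NK or ILC1-like cells was 0.05 (−0.05 to 0.16). *Slamf7* was also found there, at 172 and 169 CPM, and it was found in plasma-like cells at 111 CPM (98.8–123) in the old and 93.1 CPM (52.1–154) in the young library, the latter from 7 cells. The other 6 genes had at most 44.98 CPM in old NK or ILC1-like cells.

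*Gm8369*, *Dnah8* and *1700097N02Rik* had a second site in B-like cells, with 204, 74.3 and 89.8 CPM in the old and 245, 106 and 112 CPM in the young library. *Tcf7*, a T lineage factor, had 3 UMIs in old and none in 354 young B-like cells, where 3 UMIs, the limit that a count of 0 allows, would be 2.02 CPM. *Myb* and *1700097N02Rik* were found in plasmacytoid dendritic-like cells, at 28.8 and 45.7 CPM in the old library and 35.1 and 30.4 CPM in the young one. *Tcf7* had 28.8 CPM there in the old library, from 4 of 65 cells, and 4.68 CPM in the young one, from 1 of 90 cells. In B-like cells *Myb* had 32.3 CPM in the young library, from 19 of 354 cells, and 6.19 CPM in the old one. In ILC2-like cells, for which the libraries were enriched, none of the 8 passed 30.7 CPM. In proximal tubule-like cells, the largest class, the highest value of any of the 8 genes was 4.41 CPM, of *Txk* in the young library.

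**Figure D5:**
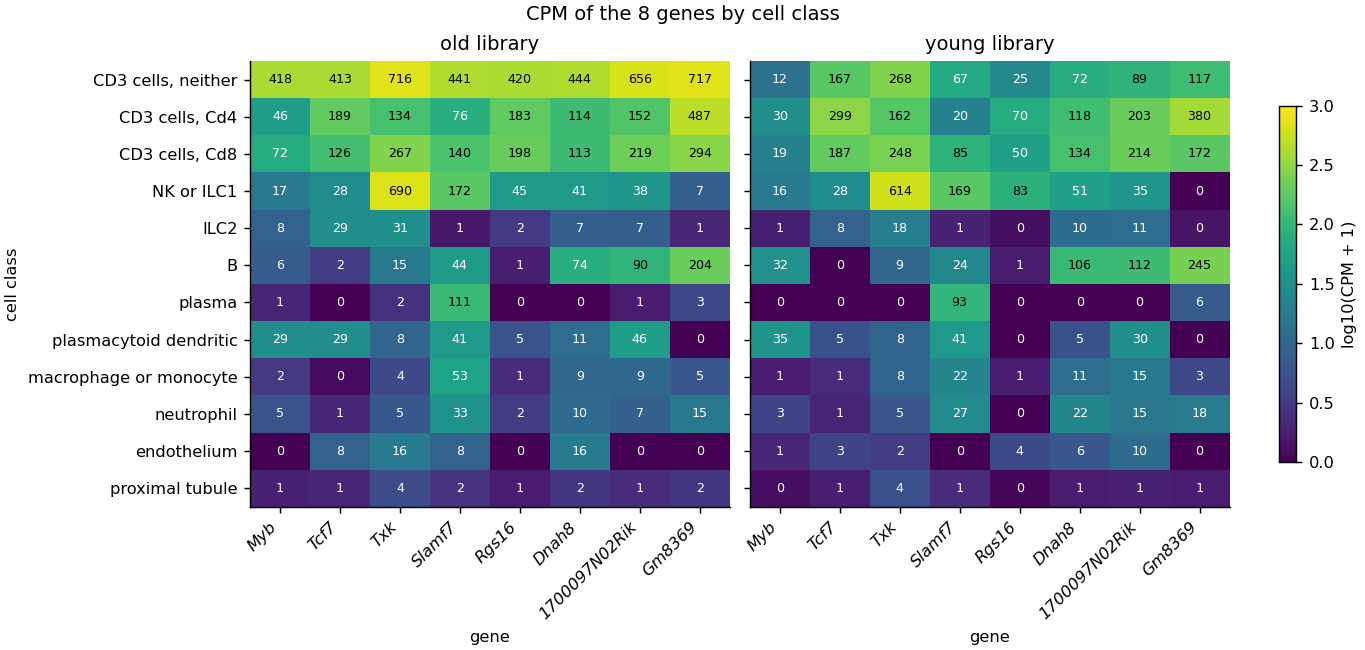
CPM of the 8 genes in each cell class of the old (left) and young (right) library, written in each cell and coloured by log10(CPM + 1); rows are classes and columns are genes. The old coreceptor-negative row is highest for each gene, *Txk* reaches 690.0 and 614 CPM in the NK or ILC1 row, and *Gm8369* reaches 204 and 245 CPM in the B row.

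Likeness of pattern was measured as Pearson's r of log2(CPM + 1) over 26 cell classes of both libraries, among 8460 genes with at least 200 UMIs in CD3 cells. The classes share 2 libraries and differ in depth, several of them are T cells, and r is given as a description. *Dnah8* and *1700097N02Rik* were each the gene most like the other, at an r of 0.96. The next were *Smc4*, a condensin subunit, and *Dgka*, a diacylglycerol kinase, for *Dnah8* (0.93 and 0.92), and *Gpr183*, a chemotactic receptor, and *Smc4* for *1700097N02Rik* (0.93 each). *Myb* was most like *1700097N02Rik* (0.90), *Gpr174* (0.90) and *Fryl* (0.87), and of these *Fryl* had 419.6 CPM in old coreceptor-negative and 152 CPM in *Cd4* cells.

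*Tcf7* was most like *Cd27*, a costimulatory receptor, *Trbc2* and *Pdcd1* (0.95, 0.93 and 0.93), *Txk* like *Tnfrsf9*, *Lck* and *Fasl*, the ligand of the Fas receptor (0.96 each), and *Rgs16* like *Sh2d1a*, *Cd247* and *Fasl* (0.96, 0.95 and 0.95). Likeness over many classes did not mean a like order within CD3 cells, and *Pdcd1*, for one, was lower in old coreceptor-negative cells (50.7 CPM) than in *Cd4* cells (104 CPM). *Slamf7* was most like *Ly6c2*, *Gpr18* and *Ly9* (0.91, 0.89 and 0.86), and *Gm8369* like *Dtx1*, *Ccr7* and *Gm30054* (0.93, 0.90 and 0.86). The lowest r within the 8 genes was 0.52, of *Tcf7* and *Slamf7*.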

How the data were processed

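RNA of kidney cells was counted in a library per age of MRL-*lpr* mice with the 10x Chromium Single Cell 3′ v3.1 kit. On the mm10 genome, the authors counted UMIs and deposited these counts per gene and barcode, made with Cell Ranger 3.1.0 per the file headers, without normalization. The annotation and any use of strand in counting are not given in the sources used here.

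Counts were analysed with Scanpy 1.11.5 (which includes Scrublet), SciPy 1.17.1, NumPy 2.4.6, pandas 2.3.3 and Matplotlib 3.10.9 in Python 3.11.15. Doublet calls by Scrublet, 328 in the young and 246 in the old library, removed no cell. The members and lists were chosen with earlier results of these data known, and the scoring of CD3 cells against other lineages was set after the files had been seen. Ratios of summed counts used a floor of 3 counts for a count of 0, and the ratio step was tested on simulated data. With 1 library per age there is no test, and no p-value was computed. Thinning used the seed 7. Besides the 8 genes, the text names the 3 genes most like each, the highest and lowest gene of each list by the ratio over old *Cd4* cells, and genes whose order was turned between the libraries, and it says where another gene was named. A few values that this rule would name are not reported here. Positions of genes are those of GENCODE M21 (GRCm38), whose identifiers matched 30934 of the genes, and promoter windows from RefSeq on GRCm38.p6. Alternatives were other gates, filters and totals, and selections of cells by γδ, NK, ILC2, cycling, *Xist* or Y-linked genes. Of these, 3 kinds were added after the data were seen. They left out *Trdc* cells, ILC2-gene cells of the coreceptor-negative class alone, or *Trdc*, NK, ILC2 and cycling cells of all classes together.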

Additional observations from a re-analysis of the deposited data

Results flagged for a closer look

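For 6 of the 8 genes the log2 ratio of coreceptor-negative over *Cd4* cells lay above 0 in the old and below 0 in the young library, with neither 95% interval holding 0, as for 1.77% of 8067 genes. The young values were −1.29 for *Myb*, −0.84 for *Tcf7*, −1.50 for *Rgs16*, −0.71 for *Dnah8*, −1.18 for *1700097N02Rik* and −1.70 for *Gm8369*. Over *Cd8* cells the same was seen for 4 genes (1.94% of 8334 genes), with young values of −1.02 for *Rgs16*, −0.89 for *Dnah8*, −1.26 for *1700097N02Rik* and −0.56 for *Gm8369*. All 8 genes had old intervals above 0 over both classes, a pattern they were chosen for. The shares of all genes are thus no fair base for these counts. The intervals cover counting error only, and with 1 library per age the difference between the ages was not tested. *Trdc*, NK and ILC2 genes were found in larger shares of young than of old coreceptor-negative cells, and without these and cycling cells the median young ratio of the 8 genes was −0.28 over *Cd4* and 0.03 over *Cd8* cells. *Rgs16* then lay above 0 over both, and *Gm8369* lay above 0 over *Cd8* cells. The other young ratios named here stayed below 0.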

How the results depend on the processing

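The old counts of genes at least 2-fold higher in coreceptor-negative cells were 5 to 7 over *Cd4* cells and 6 to 8 over *Cd8* cells in the 19 alternatives, the lowest with outscored cells kept, and no old log2 ratio fell below 0.34. Of 304 old log2 ratios under these alternatives 208 stayed within the counting interval, 96 moved outside it and none changed sign. Of 303 young ones 237 stayed, 63 moved, and 3 of ratios past 2-fold changed sign, all of *Rgs16*: 0.055 over *Cd8* cells with the mean of each cell's CPM, and 0.22 over *Cd4* and 0.45 over *Cd8* cells without *Trdc*, NK, ILC2 and cycling cells. That count leaves out ratios within 2-fold, some of which also crossed 0. One was *Gm8369* over young *Cd8* cells, at −0.56 with all cells. It had 285 against 204 CPM without *Trdc*, NK, ILC2 and cycling cells, and 240 against 209 CPM without *Trdc*, *Tcrg-C* or *Zbtb16* cells. The young count over *Cd4* cells, 1, was 0 in cells of at least 5000 UMIs, 0 without *Trdc*, *Tcrg-C* or *Zbtb16* cells and 2 in cells with *Xist* alone. It was 2 with ILC2-gene cells left out of the coreceptor-negative class. The 121 *Cd4* cells kept theirs, and *Txk* had 333 against 162 CPM. With cells of exactly 1 coreceptor UMI left out the count stayed 1, but the gene was *Txk* and not *Slamf7*. In cells with *Xist* alone, *Slamf7* was counted against 0 UMIs in 20 *Cd4* cells, without the floor of 3 counts. That floor would be 26.8 CPM against 44.7 CPM of *Slamf7* in coreceptor-negative cells, which is less than 2-fold. The young count over *Cd8* cells, 0, was 1 in cells with *Xist* alone. The cause of these shifts was not tested. Of 32 shares of cells with a UMI, 28 moved when cells were thinned to 2000 UMIs or not at all. No paired analysis was possible because each age is 1 library. Counting error is widest in the young library, which has 588 CD3 cells against 4060 in the old one.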
